A study of Homo sapiens with 26 samples.

Results

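At 1294 of 10740 regions measured in A549 cells, or 12.0%, the glucocorticoid receptor (GR) signal rose little or fell with budesonide alone. It was higher once interleukin-1β (IL1B) was added, and rose little or fell with IL1B when NF-κB was inhibited. These regions, the members, share such differences and not a common level. The members were chosen on 3 differences between log2 values. Budesonide minus untreated was below 1 in control cells, IL1B plus budesonide minus budesonide was at least 2 in control cells, and the same IL1B difference was below 0.5 in cells with the inhibitor. The values that chose the members are therefore given below as a description, and nothing is supported with them.

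A549 is an established human lung carcinoma line with features of alveolar type II epithelium. An adenovirus delivered either IκBαΔN, an inhibitor of NF-κB (Ad-IκBαΔN), or green fluorescent protein, the control (Ad-GFP), and cells were kept overnight without serum before treatment. In each virus they were left unstimulated (NS), given 300 nM budesonide (Bud), or given 1 ng/ml IL1B with the same budesonide (I+B), all for 1 h. GR was mapped by chromatin immunoprecipitation and sequencing (ChIP-seq) with 2 libraries per group, and the authors' table gives 1 value per region and group, so differences could not be set against a spread between libraries and carry no test. Cells of all 6 groups were virus-infected and labelled WT, and GR signal cannot show the cell type. The table writes the inhibitor virus as Ad-IκBα where the labels have Ad-IκBαΔN. The 12 RELA libraries and the 2 input libraries were not analysed here, so neither RELA occupancy nor the efficacy of the inhibitor was measured at these regions.

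GR is a hormone-activated transcription factor that binds DNA directly at glucocorticoid response elements, paired half-sites facing each other across a short spacer. NF-κB dimers such as those of RELA and p50 are held in the cytoplasm by IκB proteins, are released when IL1B signalling leads to destruction of IκBα, and bind κB sites in the promoters and enhancers of inflammatory genes. A truncated IκBα that cannot be marked for destruction keeps NF-κB in the cytoplasm. In airway epithelium glucocorticoids repress many NF-κB target genes, while some genes that restrain inflammation are induced by both signals.

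Stretches around the κB core match nearest the region centre, printed here because they show the sequence found in most members, came from the lead members of listed NF-κB pathway genes. The lead member of a gene is the one with the largest IL1B difference in Ad-GFP. Sequences are hg38 reference, 5′ to 3′ on the strand given, with the core match in capitals. The core is the 9-letter GGNNNNNCC in which the third letter is A or G, the fifth A or T, and the sixth and the seventh C or T. It is the 10-letter κB consensus without its first G.
EFNA1, chr1:155124748-155124798, plus strand: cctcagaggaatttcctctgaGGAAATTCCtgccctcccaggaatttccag
IKBKE, chr1:206469617-206469667, minus strand: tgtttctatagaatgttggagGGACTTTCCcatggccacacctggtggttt
TNFAIP3, chr6:137849478-137849528, minus strand: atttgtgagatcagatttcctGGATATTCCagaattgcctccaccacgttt
ICAM1, chr19:10270924-10270952, plus strand: gctttagcttGGAAATTCCggagctgaag
NFKB2, chr10:102394491-102394519, plus strand: ggccgagaagGGGCTTTCCcggccctgag
BDKRB1, chr14:96269153-96269181, plus strand: ccagcctcggGGAAACTCCctgatgttgc
CX3CL1, chr16:57377680-57377708, minus strand: gaaacccccaGGGCATCCCtgggctccac
The core match lay within 10.5 bp of the region centre in these 7 members. The EFNA1 region held 4 core matches in its central 200 bp, all capitalised below, and no 10-letter match.
EFNA1 centre, chr1:155124667-155124866, plus strand: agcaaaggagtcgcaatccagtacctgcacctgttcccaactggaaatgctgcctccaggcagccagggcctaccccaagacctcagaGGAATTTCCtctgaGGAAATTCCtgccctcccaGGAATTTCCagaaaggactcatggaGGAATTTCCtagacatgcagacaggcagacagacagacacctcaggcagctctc
Lead members of NFKB1, IRAK2, N4BP1, TNIP1 and NFKBIA held no core match. No member held a perfect glucocorticoid response element, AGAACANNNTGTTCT on either strand. At 10 members a match with 1 mismatch was found, of which that in an intron of PTPRM, which encodes a receptor-type phosphatase, is shown with the element in capitals.
PTPRM, chr18:7923292-7923356, plus strand: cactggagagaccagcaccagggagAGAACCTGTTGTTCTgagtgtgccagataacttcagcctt

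The deposited values were read as log2(signal + 1), where the signal behaves as a mean coverage over the 400 bp region. Members had median levels of 3.13 in NS, 3.39 in Bud and 3.60 in I+B cells with Ad-IκBαΔN, against 3.17, 2.87 and 5.98 with Ad-GFP. As signal, the I+B medians were 11.1 with Ad-IκBαΔN and 62.0 with Ad-GFP. A lower signal could come from fewer cells with GR at a region or from less GR there per cell, and these cannot be told apart in bulk chromatin. Among all 10740 regions the median member stood at percentile 13.0 with I+B in Ad-IκBαΔN and 67.0 with I+B in Ad-GFP. The spread across members was wide, since I+B levels ran between 0.91 and 5.50 with Ad-IκBαΔN and between 3.39 and 9.59 with Ad-GFP.

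**Figure D1:**
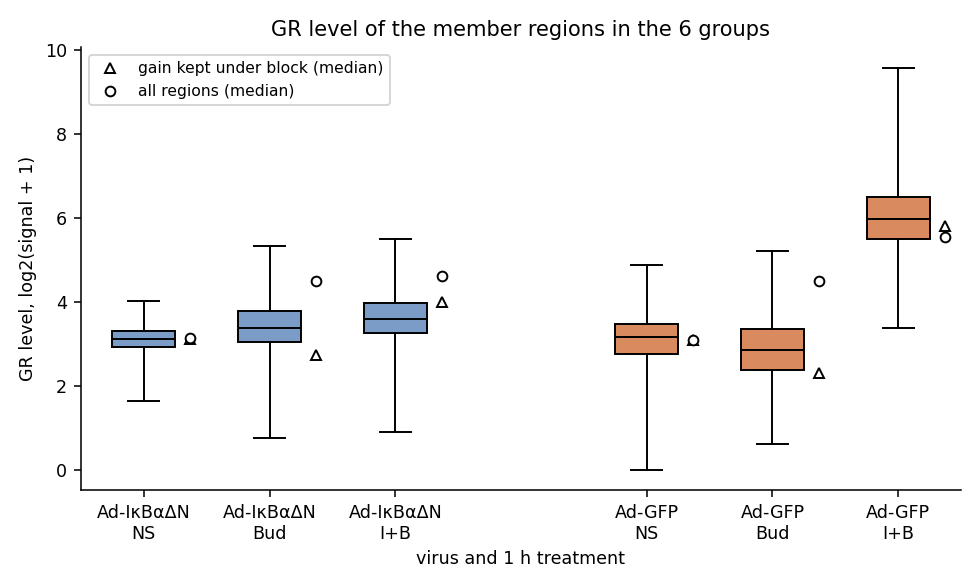
GR level, log2(signal + 1), of the 1294 members in the 3 treatments of Ad-IκBαΔN (left, blue) and Ad-GFP (right, orange) cells. Boxes span the quartiles across members with the median as a line and whiskers reach the lowest and highest member, which is a spread over regions and not an error; triangles and circles are medians of the kept regions and of all regions. The box of I+B in Ad-GFP, with its median at 5.98, stands above the 5 others, whose medians lie between 2.87 and 3.60.

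The IL1B difference of the members in Ad-GFP, which chose them, had a median of 3.05 and reached 6.67 at LRRC32. It lay between 2 and 3 at 599 members, between 3 and 4 at 528, between 4 and 5 at 136, and at or above 5 at 31. Of all regions, 48.9% were at least 2-fold higher with I+B than with Bud in Ad-GFP, as were all 1294 members by the rule. In Ad-IκBαΔN the same difference had a median of 0.26 in the members and 0.26 in all regions, and it was below 0 at 224 members. No member was at least 2-fold higher or lower there, as the rule bars the first, with backgrounds of 9.65% and 0.94%. Budesonide minus untreated in Ad-GFP, bounded by the rule, was at least 2-fold lower at 183 members, with a background of 8.14%.

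**Figure D2:**
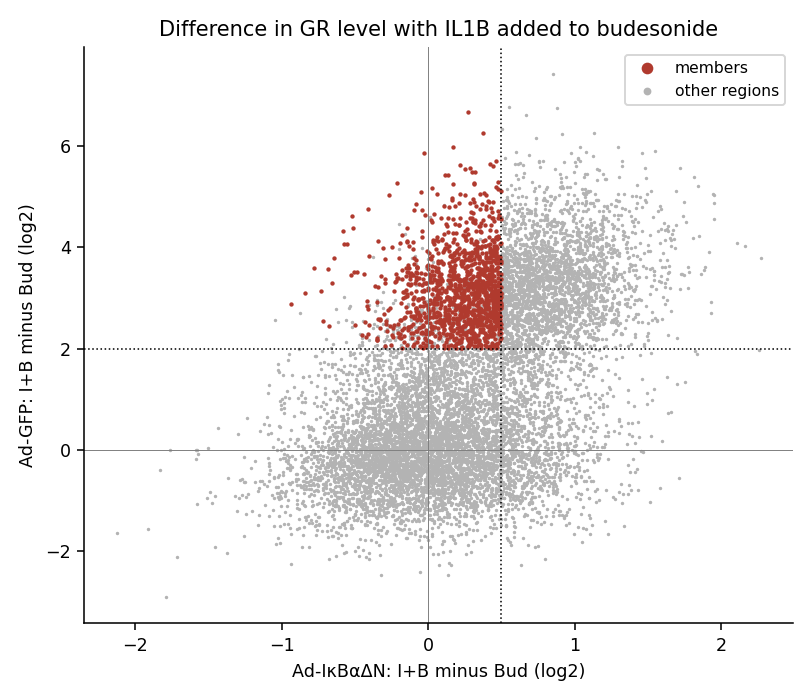
Each point is 1 of the 10740 regions. The horizontal axis gives I+B minus Bud (log2) in Ad-IκBαΔN, the vertical axis the same in Ad-GFP, and dotted lines mark the thresholds of 0.5 and 2. Members (red) fill the upper left field, between -0.94 and 0.50 on the horizontal axis, and merge without a gap into the regions to the right of the line.

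With I+B, the level in Ad-IκBαΔN minus that in Ad-GFP had a median of -2.34 in the members and -0.85 in all regions. It was lower by at least 2-fold at 1290 members, where the background over all regions was 46.5%. This contrast shares its values with the rule. A lower value was not particular to the members. The kept regions were 810 regions that met the same Ad-GFP conditions but kept a difference of at least 1 with the inhibitor. Their median was -1.86, and 717 of them, or 88.5%, were at least 2-fold lower. Both sets were chosen on these values, so this is a description. Kept regions reached an I+B median of 3.99 with Ad-IκBαΔN and 5.81 with Ad-GFP. With Bud they stood at 2.74 with Ad-IκBαΔN and 2.32 with Ad-GFP, below the members' 3.39 and 2.87. A further 1556 regions fell between, with a difference of 0.5 to 1 under the inhibitor, so the members made up 35.4% of the 3660 regions that met both Ad-GFP conditions.

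The thresholds fell in a continuous run of values. On the inhibitor side, ANGPT1, GNA12 and ARHGAP12 regions lay just inside at 0.50 each, and LMNA, TP53BP2 and SPTBN1 regions just outside at 0.50 each, when rounded. On the gain side, CALN1, TSC22D2 and MYCN regions lay just inside at 2.00, 2.01 and 2.01, and MARCKS, NID1 and MOGAT1 regions just outside, each at 2.00 when rounded. On the budesonide side, PTX3, NFIB and DLG1 regions lay just inside at 1.00, 0.99 and 0.99, and a region near a gene without a symbol, KDM7A and GPRIN3 regions lay just outside at 1.00 each.

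Untreated cells with Ad-IκBαΔN are the 1 group that the rule did not use. Their members ranked at a median percentile of 49.8 among all regions, and the level in Ad-IκBαΔN minus that in Ad-GFP without stimulus had a median of -0.01 in the members and 0.04 in all regions. At least 2-fold differences between the viruses were found at 53 members in the higher direction, against a background of 7.21%, and at 31 in the lower, against 2.77%. These counts are 4.10% and 2.40% of the members, near or below the background. The NS value of Ad-GFP enters the rule with a sign that favours a lower difference here. The median and the counts are therefore a description. Budesonide minus untreated in Ad-IκBαΔN had a median of 0.26 in the members and 1.37 in all regions. It was at least 2-fold higher at 111 members, or 8.58%, with a background of 59.3%, and at least 2-fold lower at 7, with a background of 1.06%. Relative to all regions the budesonide difference, which the rule bounds in Ad-GFP, was thus low in Ad-IκBαΔN too. The regions and the Bud value of Ad-IκBαΔN are shared with the rule, so this is a description. It was lower still in the kept regions, with a median of -0.34 and 0.62% at least 2-fold higher. The 1556 regions between had a median of 0.01 and 2.89%. I+B minus NS in Ad-IκBαΔN was at least 2-fold higher at 246 members, or 19.0%, with a background of 69.1%. It was at least 2-fold lower at 5, with a background of 0.0466%. The I+B value of Ad-IκBαΔN enters the rule with a sign that favours a low difference, so these counts are a description. The share at least 2-fold higher was also below the background in kept regions, at 40.7%, and in the 1556 regions between, at 29.6%. In Ad-GFP, I+B minus NS was at least 2-fold higher at 1291 members, with a background of 93.7%, a direction that the rule favours.

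With Bud, members had higher values in Ad-IκBαΔN than in Ad-GFP, by a median of 0.50, against 0.02 in all regions. This was not particular to the members. The kept regions had a median of 0.40 and the 1556 regions between a median of 0.53, with 10.2% and 12.3% at least 2-fold higher. At least 2-fold higher values were found at 152 members, or 11.7%, with a background of 4.02%, and at least 2-fold lower values at 0, with a background of 0.0186%. For the members, both Bud values enter the rule with a sign that favours this direction, so it is given as a description. After quantile normalization the members' median was 0.08.

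The scale of the deposited values differs between groups and bears on the distance of a difference from 0. Values of (2 to the power of the level, minus 1) times 400 were whole multiples of 3 in I+B with Ad-GFP, of 1.5 in I+B with Ad-IκBαΔN, and of 1 in both Bud groups and, at 99.99% of regions, in NS with Ad-GFP, where whole means within 0.0001 of a step, while no step was found in NS with Ad-IκBαΔN. With these steps divided out, the IL1B difference of the members had a median of -0.26 in Ad-IκBαΔN and 1.53 in Ad-GFP, and that of all regions -0.29 and -0.61. Relative to all regions the members' median thus stood at 0.02 in Ad-IκBαΔN and 2.14 in Ad-GFP, against -0.00 and 2.13 as deposited. With quantile normalization it stood at -0.29 and 1.33. The rule applied after rescaling chose between 485 and 1418 regions, of which between 152 and 1035 were members as deposited, and 150 members were chosen under the deposited scale and all 4 others. The I+B level was lower in Ad-IκBαΔN than in Ad-GFP at 1291 of the 1294 members under all 4. The rule that chose these members favours that direction, so the count is a description.

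Sequence was not part of the rule. The 10-letter κB consensus was found on either strand in 45.4% of members, 50.9% of kept regions, 18.0% of all regions outside the set and 3.90% of 400 bp windows 5 kb from members. The 9-letter core, searched after the lead members had been seen, was found in 68.2% of members, 70.6% of kept regions, 32.1% of other regions and 12.3% of windows. Every 10-letter match contains a core match. The κB shares of members and kept regions were thus close, and both were above those of the other regions, which include the kept regions. Among members, 883 held the core, and the most frequent 10-letter words were GGGAAATTCC in 93 members, GGGAATTTCC in 83, and GGGACTTTCC and GGGGAATTCC in 54 each.

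The glucocorticoid response element was searched with up to 2 mismatches among 12 fixed bases, and it was found in 4.56% of members, 3.83% of kept regions, 16.1% of other regions and 2.20% of windows. The half-site AGAACA, which every perfect element contains, was found in 30.9% of members, 43.3% of other regions and 25.1% of windows. TGANTCA with C or G as the middle letter, the site of AP-1 dimers of FOS and JUN proteins, was found in 26.5% of members, 22.0% of kept regions, 22.2% of other regions and 6.07% of windows. TGTTTAC, a site of forkhead (FOX) proteins, was found in 13.4% of members, 9.26% of kept regions, 13.1% of other regions and 4.79% of windows. TTGCNNAA of C/EBP proteins, in 28.9% of members, GGAATG of TEAD proteins, in 26.4%, and CGGAAG of ETS proteins, in 5.95%, were within 2 percentage points of the other regions, at 29.3%, 28.3% and 5.93%. Median GC content was 44.8% in members, 44.5% in other regions and 43.5% in windows.

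**Figure D3:**
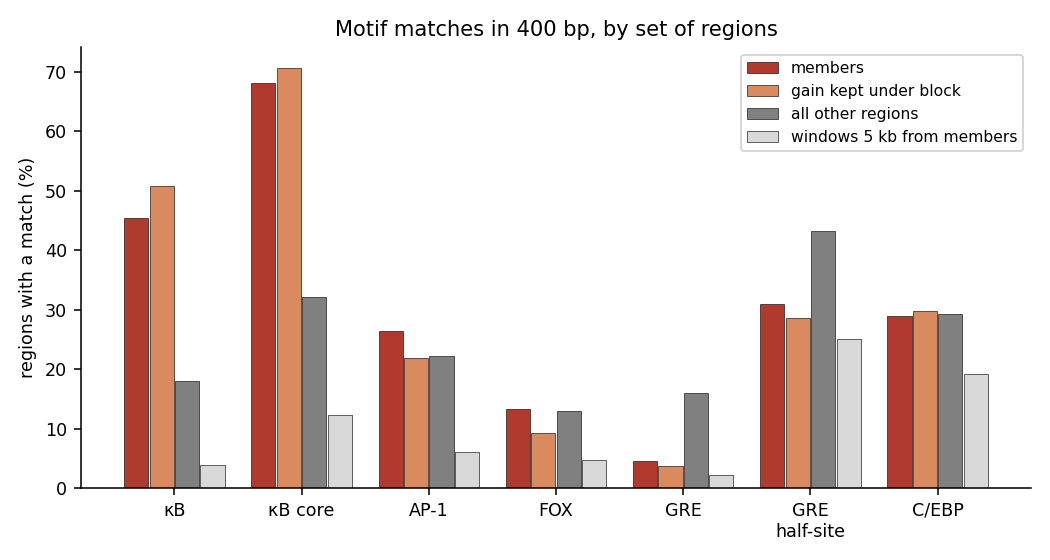
Share of 400 bp regions (%) with at least 1 match to each motif on either strand, for members, kept regions, all other regions and windows 5 kb from members. The other regions are all that are not members, so they include the kept regions. The bars for κB and its core are of like height in members and kept regions and lower elsewhere, and the bar for the glucocorticoid response element (GRE) is tallest in other regions, at 16.1%.

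Matches to κB lay near the middle of the regions, in members and in other regions alike. Of 1381 core matches in members, 66.2% lay within 50 bp of the region centre, with a median distance of 29.5 bp. In other regions 56.3% of 4453 core matches did, with a median of 39.5 bp, and in windows 22.8% of 368. Of 10-letter matches 73.7% lay within 50 bp in members and 69.1% in other regions. Of the 59 glucocorticoid response elements in members 45.8% lay within 50 bp of the centre, with a median distance of 55.5 bp. In other regions it was 80.5% of 1521, with a median of 16.5 bp. AP-1 matches in members lay at a median of 60.5 bp.

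**Figure D4:**
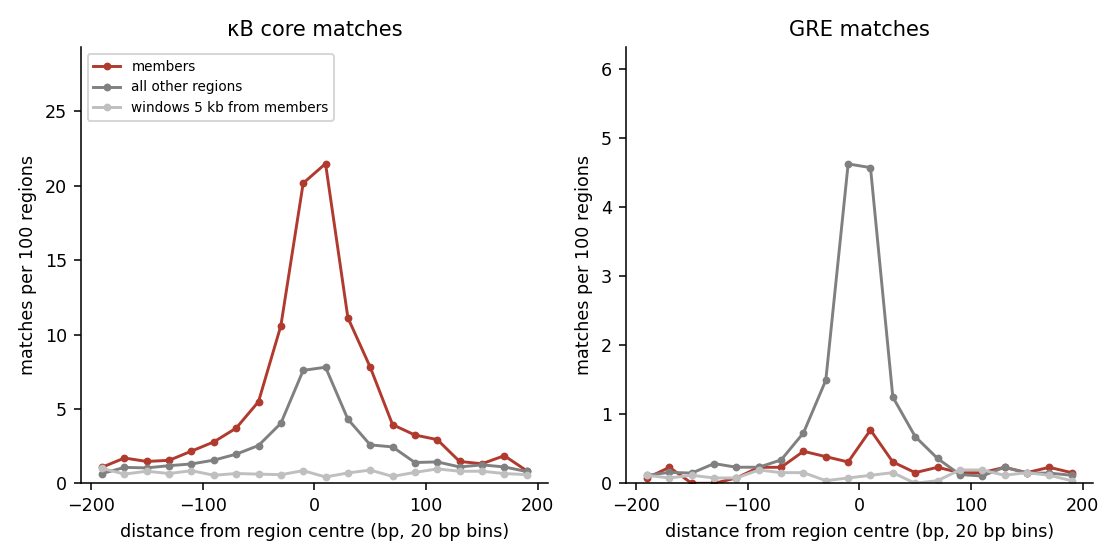
Matches per 100 regions in bins of 20 bp by distance from the region centre, for the κB core (left) and the glucocorticoid response element (GRE, right), in members, all other regions and windows 5 kb from members. Core matches peak at the centre in members and, at a lower height, in the other regions. GRE matches peak there in the other regions, with few in members.

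The IL1B difference in Ad-GFP, which the rule cut at 2, is given here by κB content as a description and with no test. Its median was 2.84 at the 411 members without a core match, 3.08 at the 540 with 1, 3.20 at the 251 with 2, and 3.32 at the 92 with 3 or more. Split into 4 equal bins by the Ad-GFP difference, low to high, members held the core in 56.8%, 67.2%, 71.2% and 77.8%, AP-1 in 29.0%, 29.1%, 26.6% and 21.3%, and the glucocorticoid response element in 4.94%, 5.26%, 3.41% and 4.63%. GC content moved with the number of core matches, at medians of 42.0%, 44.1%, 47.0% and 51.4%, and its part in the result was not tested. A further 281 members, or 21.7%, held none of the core, the element and AP-1, and their median I+B level was 3.60 with Ad-IκBαΔN and 5.93 with Ad-GFP.

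Most members lay away from promoters, as did most of all regions. Introns of protein-coding genes held 48.5%, sequence outside genes 34.3%, genes of long noncoding RNAs 14.1%, untranslated exons 2.32% and coding exons 0.77%, and these shares were within 2 percentage points of those of the other regions. In all, 58 members, or 4.48%, lay within 1 kb of a protein-coding transcription start site (TSS), near the 3.84% of all regions. The median distance was 44.4 kb, against 47.5 kb in other regions. Of the members, 944, or 73.0%, lay within 100 kb of a TSS, near the 71.4% of all regions. They were linked to 829 genes, which is no evidence that a region acts on that gene. Of these genes 733 had 1 member, 80 had 2, 13 had 3, and ICAM1, TNS3 and SMAD3 had 4. Another member lay within 25 kb at 192 members. The like count was not made for other regions, so it cannot be read as particular to the members. The densest group was the 4 members at ICAM1, between positions 10265281 and 10272018 of chromosome 19.

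The 10 members with the largest difference reached levels with I+B in Ad-GFP between 7.02 and 9.59. The first was 20.2 kb upstream of LRRC32, which encodes a cell-surface anchor of latent TGF-β, on chromosome 11 (76690724 to 76691123). Its signal was 6.97, 8.75 and 10.8 in NS, Bud and I+B with Ad-IκBαΔN, against 9.85, 3.81 and 490.2 with Ad-GFP. Next was the EFNA1 region, 3.11 kb upstream of a gene for an ephrin ligand that TNF and IL1B are known to induce. Its signal was 8.45, 14.2 and 18.8 with Ad-IκBαΔN, against 9.58, 9.02 and 768.3 with Ad-GFP. The others lay near UBE2E1, a ubiquitin-conjugating enzyme, DOCK4, ITGB6, the β6 integrin subunit of epithelium, NFKB2, N4BP1, JAK1, a kinase of cytokine receptors, SLC9A8 and NFKB1, with log2 differences in Ad-GFP between 5.55 and 5.97 and in Ad-IκBαΔN between -0.03 and 0.46. In each of the 10 the level with I+B in Ad-GFP lay above all 5 other groups, which lay between 1.43 and 4.31.

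Genes of NF-κB itself carried members. All gene lists were written with earlier results of these data known, so shares by list are a description. The NF-κB subunit and signalling list had 11 members among its 42 linked regions, or 26.2% against 12.3% over all linked regions, at 8 genes. Members made up 42.3% of its 26 regions that met both Ad-GFP conditions, against 34.9% over all linked regions. NFKB2 encodes p100, the precursor of the p52 subunit, and its region 1.21 kb upstream of the TSS, in annotated untranslated sequence, had levels of 3.08, 3.89 and 4.31 in NS, Bud and I+B with Ad-IκBαΔN, against 3.61, 3.55 and 9.19 with Ad-GFP. NFKB1 encodes p105, the precursor of p50, and had a member at its promoter, 0.072 kb upstream of the TSS, with levels of 3.15, 3.34 and 3.81 with Ad-IκBαΔN, against 3.09, 2.55 and 7.71 with Ad-GFP. A second NFKB1 member 61.9 kb upstream reached 3.16 with I+B in Ad-IκBαΔN, against 7.65 in Ad-GFP. In these members only I+B with Ad-GFP was high, and the other 5 groups lay between 2.10 and 4.31. IRAK2, a kinase of the IL1 receptor complex, and IKBKE, an IκB kinase relative, had log2 IL1B differences of 0.42 and 0.25 with Ad-IκBαΔN and 3.80 and 3.76 with Ad-GFP. RELB, BCL3, IKBKB and MAP3K8 had lead members with Ad-GFP differences between 2.81 and 3.73.

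Inflammatory effector genes, 44 known NF-κB-dependent genes, had 109 linked regions, of which 24 at 16 genes were members. That was 22.0% of the list's regions, against 12.3% over all linked regions, but 31.6% of the list's 76 regions that met both Ad-GFP conditions, against 34.9%. At ICAM1, the leukocyte adhesion molecule, all 4 linked regions were members, within 5.64 kb upstream and 0.698 kb downstream of the TSS. The region 0.182 kb upstream had levels of 3.25, 3.42 and 3.38 in NS, Bud and I+B with Ad-IκBαΔN, against 2.98, 2.52 and 7.60 with Ad-GFP. Across the 4, IL1B differences lay between -0.05 and 0.38 with Ad-IκBαΔN and between 3.16 and 5.09 with Ad-GFP. The lead member of BDKRB1, the kinin B1 receptor, had 3.31, 3.41 and 3.72 with Ad-IκBαΔN, against 4.24, 2.62 and 7.29 with Ad-GFP. That of CX3CL1, the chemokine fractalkine, had 3.19, 3.81 and 3.92 with Ad-IκBαΔN, against 3.32, 2.62 and 6.89 with Ad-GFP. All 3 stood highest with I+B in Ad-GFP and lowest with Bud in that virus. CXCL8, the neutrophil chemokine, had 3 members among 6 regions, with IL1B differences between -0.64 and -0.04 with Ad-IκBαΔN and between 3.64 and 4.21 with Ad-GFP. Its strongest region with Bud, 0.092 kb upstream of the TSS, was no member, because budesonide minus untreated was 2.23 there in Ad-GFP. Its levels with I+B were 4.23 in Ad-IκBαΔN and 8.60 in Ad-GFP. PTGS2, CCL2, CCL20, CXCL2, IL1A, LIF, TLR2, CSF1, CFB, IL32 and TNFAIP2 had lead members with Ad-GFP differences between 2.28 and 4.15.

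**Figure D5:**
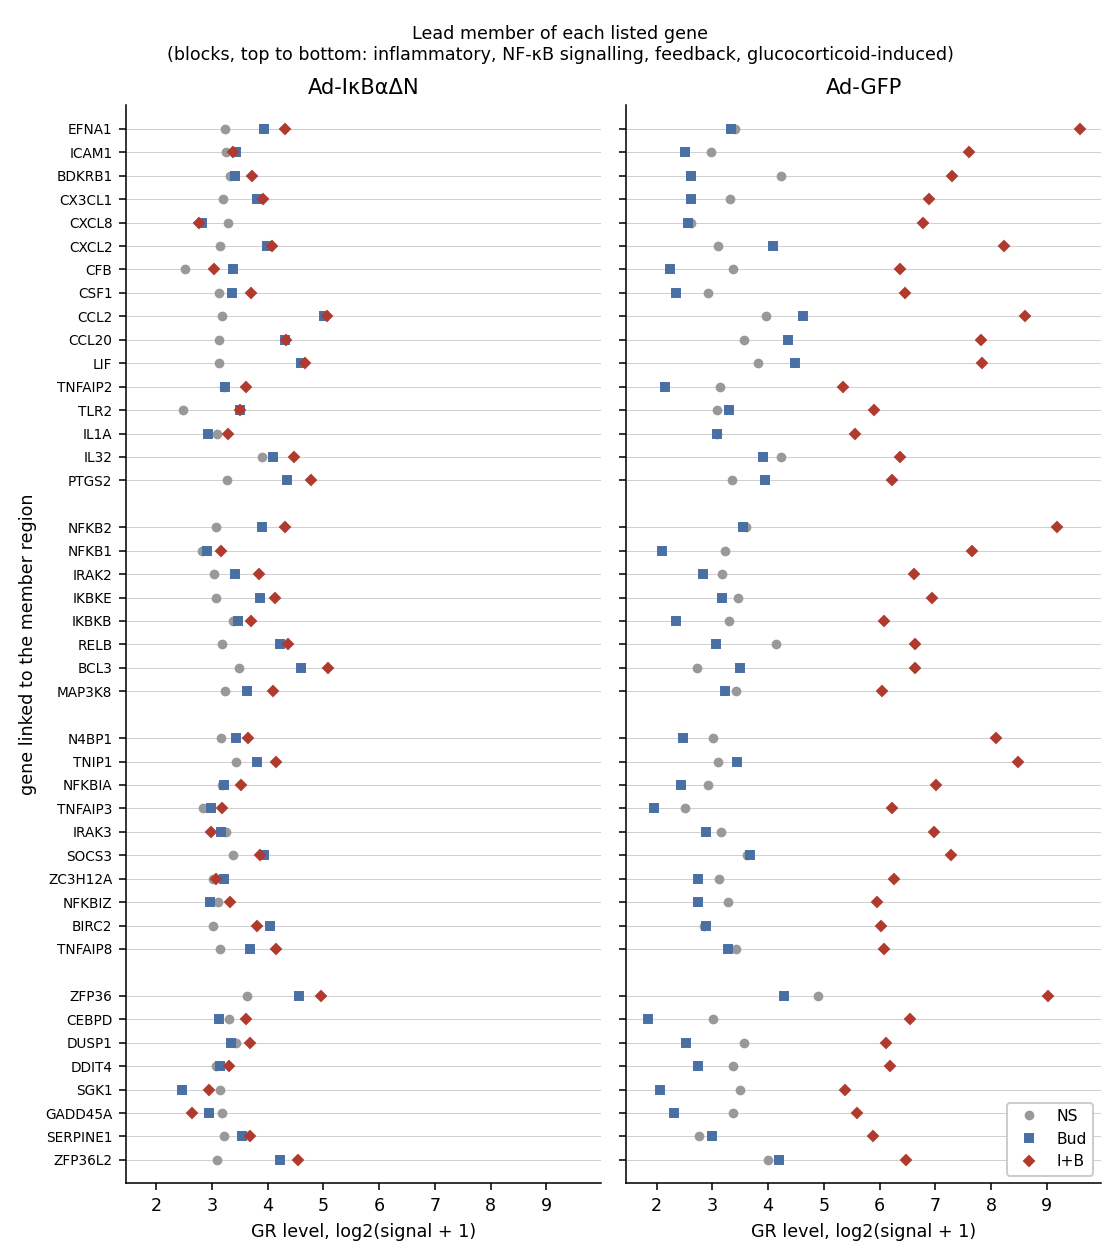
GR level, log2(signal + 1), in NS (grey circles), Bud (blue squares) and I+B (red diamonds) at the lead member of each gene of the inflammatory, NF-κB, feedback and glucocorticoid lists, in Ad-IκBαΔN (left) and Ad-GFP (right) cells; each point is 1 deposited value and has no error. In Ad-GFP the I+B points stand between 5.34 and 9.59, to the right of NS and Bud in every row. In Ad-IκBαΔN all I+B points lie between 2.64 and 5.08.

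Feedback regulators of NF-κB had 17 members among 67 linked regions, at 10 of the list's genes. That was 25.4%, against 12.3% over all linked regions, and members were 42.5% of the list's 40 regions that met both Ad-GFP conditions, against 34.9%. TNIP1, a ubiquitin-binding partner of A20, had 3 members among 9 regions, and the lead 12.7 kb upstream had levels of 3.43, 3.80 and 4.16 in NS, Bud and I+B with Ad-IκBαΔN, against 3.10, 3.43 and 8.48 with Ad-GFP. Lead members of N4BP1, TNFAIP3, which encodes the ubiquitin editor A20, and IRAK3, a restraining kinase relative, had Ad-GFP differences of 5.62, 4.28 and 4.08 and Ad-IκBαΔN differences of 0.21, 0.19 and -0.19. NFKBIA, which encodes IκBα, had 2 members among 9 regions, 29.0 and 39.1 kb downstream of the TSS. The nearer had levels of 3.18, 3.22 and 3.51 with Ad-IκBαΔN, against 2.92, 2.44 and 7.02 with Ad-GFP. The strongest budesonide region of the same gene, 0.724 kb downstream, behaved otherwise, with 3.33, 9.39 and 9.07 with Ad-IκBαΔN and 3.95, 9.77 and 9.27 with Ad-GFP. Of the 9 NFKBIA regions 7 were at least 2-fold higher with Bud than NS in Ad-GFP, with a background of 57.9% over all regions.

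The same pairing within 1 locus was seen at glucocorticoid-induced genes, where 9 of the list's 121 linked regions, or 7.44%, were members, against 12.3% over all linked regions. Of the list's 28 regions that met both Ad-GFP conditions 32.1% were members, near the 34.9% over all linked regions. ZFP36, which encodes an mRNA-destabilising protein, had a member 3.94 kb upstream of the TSS with levels of 3.62, 4.56 and 4.95 in NS, Bud and I+B with Ad-IκBαΔN, against 4.89, 4.28 and 9.03 with Ad-GFP. A region 2.89 kb downstream of the same TSS had 3.37, 9.79 and 9.69 with Ad-IκBαΔN, against 4.39, 9.96 and 8.82 with Ad-GFP. The first stood highest with I+B in Ad-GFP, although its NS level in that virus, 4.89, was the highest of all members. The second was high with Bud and I+B in both viruses. The rule chose the first, and the second was taken as the strongest region with Bud. The contrast therefore follows from the choice, as it does at NFKBIA and DUSP1. DUSP1, a phosphatase of MAP kinases, had 1 member among 8 regions. Of the 8, 5 were at least 2-fold higher with Bud than NS in Ad-GFP, near the background of 57.9%. Its member 12.9 kb downstream had 3.44, 3.34 and 3.68 with Ad-IκBαΔN, against 3.57, 2.52 and 6.12 with Ad-GFP, and its strongest budesonide region, 1.32 kb upstream, had 3.02, 8.05 and 7.94 with Ad-IκBαΔN, against 3.38, 8.17 and 8.52 with Ad-GFP. CEBPD, a transcription factor gene, and DDIT4, an inhibitor of mTOR signalling, had lead members with Ad-GFP differences of 4.71 and 3.44 and Ad-IκBαΔN differences of 0.48 and 0.16. The DDIT4 lead was a member under 2 of the 4 rescalings.

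The other lists are given beside the 12.3% of all linked regions that were members. Immediate early genes, the AP-1 subunits among them, had 2 among 38 linked regions, or 5.26%, both linked to MYC, with a lead difference of 0.26 with Ad-IκBαΔN and 3.51 with Ad-GFP. Lung epithelial genes had 3 among 28, or 10.7%, and 42.9% of the 7 that met both Ad-GFP conditions. They lay near GATA6, an endoderm transcription factor, and KRT7, a simple epithelial keratin. Lead differences were 0.48 and 0.497 with Ad-IκBαΔN, just below the threshold of 0.5, and 4.60 and 2.91 with Ad-GFP. The KRT7 lead was a member under 1 of the 4 rescalings, with Ad-GFP differences of 1.35, 1.87 and 1.40 under the others, and the MYC lead under 2. Genes of other cell types had 1 among 6, or 16.7%, near PECAM1, an endothelial adhesion molecule, at 0.02 with Ad-IκBαΔN and 3.77 with Ad-GFP, and housekeeping genes had 0 among 6. A GR region near a gene says nothing of whether the gene was expressed.

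Besides ICAM1 and TNIP1, the genes with most members were TNS3, SMAD3, CLIP2 and EGFR, where TNIP1, CLIP2 and EGFR were taken from the 13 genes with 3 for their largest Ad-GFP differences. TNS3, a focal adhesion protein gene, had 4 members among 12 regions, with lead levels of 3.17, 3.24 and 3.56 in NS, Bud and I+B with Ad-IκBαΔN, against 3.18, 2.71 and 7.52 with Ad-GFP. SMAD3, an effector of TGF-β, had 4 among 13, with Ad-GFP differences between 2.12 and 3.10 and Ad-IκBαΔN differences between 0.27 and 0.44. EGFR, the epidermal growth factor receptor, and CLIP2 had 3 each, with lead differences of 0.02 and -0.27 with Ad-IκBαΔN and 4.50 and 5.04 with Ad-GFP. Among members within 1 kb of a TSS, SLC9A8, REPIN1, NFKB1, ICAM1, ARL14EP and OPTN, an autophagy receptor gene, had the largest Ad-GFP differences, between 4.31 and 5.56, with Ad-IκBαΔN differences between -0.05 and 0.48.

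Among the lowest differences in Ad-IκBαΔN were those at the regions nearest STPG2, KSR1, a scaffold of the RAS pathway, and GCH1, an enzyme of tetrahydrobiopterin synthesis. They lay at -0.94, -0.84 and -0.73 with Ad-IκBαΔN, against 2.88, 3.09 and 3.14 with Ad-GFP. The STPG2 region is in an intron, 575.9 kb from the TSS. With I+B in Ad-IκBαΔN their signals were 2.91, 11.9 and 5.31, lower than with Bud in the same virus, where they were 6.50, 22.2 and 9.47.

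By the authors' own classes of GR binding, 1119 members, or 86.5%, were increasing, 144 or 11.1% were unchanged and 31 or 2.40% were decreasing. Over all regions the shares were 40.5%, 31.8% and 27.8%, and in the kept regions 78.5%, 14.9% and 6.54%. Members were 25.8% of the increasing class. The sources used here give no definition of the classes. The 31 in the decreasing class had a median level with I+B of 3.43 in Ad-IκBαΔN and 5.29 in Ad-GFP, and an Ad-GFP difference of 2.79, so the class name did not follow the difference in deposited values at these 31.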

How the data were processed

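The 12 GR ChIP-seq libraries form 6 groups of 2, with replicate numbers in the labels that do not say whether cultures were separate. The authors' deposited table holds 1 log2 binding intensity per region and group and its difference from untreated cells of the same virus. Per the submitters' processing notes, the build was GRCh38 (hg38) and the tools included Bowtie2 2.4.4 and SAMtools, MACS2 2.2.7.1 with DiffBind 3.2, and bcl2fastq with FastQC 0.10.1. The step that made the intensities, the combining of libraries and the scaling are not stated in those notes, and the depth is unknown. The analysis therefore took differences of deposited log2 values, without tests. Differences of at least 1, or 2-fold on the log2(signal + 1) scale, were counted, which understates differences at low signal. The members and gene lists were chosen with earlier results of these data known.

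Regions were placed on GENCODE 44 and linked to the nearest protein-coding TSS within 100 kb. Motifs were searched on both strands of hg38, and 2587 windows 5 kb from members served for comparison. Genes named were the 10 members with the largest Ad-GFP difference, up to 4 genes per list, the 6 genes with most members, the 6 strongest members within 1 kb of a TSS, the 4 with the lowest Ad-IκBαΔN difference, and 3 regions on each side of each threshold. An item that this rule names is not reported here. Other genes of the lists were named to complete their counts, and the strongest budesonide region of a few loci was added after values were seen. Alternatives were 4 rescalings, a filter on low signal, other thresholds, motif settings and distances. The scripts were tested on simulated data. Software was Python 3.11.15 with matplotlib 3.10.9, scipy 1.17.1, pandas 2.3.3 and numpy 2.4.6.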

Additional observations from a re-analysis of the deposited data

Results flagged for a closer look

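The median of budesonide minus untreated over the members was 0.26 in Ad-IκBαΔN and -0.20 in Ad-GFP, so the 2 viruses lay on opposite sides of 0. The difference between viruses was not tested, since each group has 1 value per region. The Ad-GFP value was bounded by the rule that chose the members. After the groups were re-centred to a common median both were negative, at -1.10 in Ad-IκBαΔN and -1.61 in Ad-GFP.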

How the results depend on the processing

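No paired analysis was possible because the table holds 1 value per group, and for the same reason no replicate could be left out. The number of members, 1294, was 485 with quantile normalization, 748 without the 25% of regions with the lowest mean signal, 695 with a gain of at least 3, and 619 or 2850 with a response under the inhibitor below 0.25 or below 1. With steps divided out, re-centring, quantile normalization, centring on the unchanged class and the filter on low signal, in that order, the members' median IL1B difference was -0.26, 0.14, -0.29, 0.17 and 0.26 in Ad-IκBαΔN, so it reversed under the first and the third, and 1.53, 2.01, 1.20, 2.55 and 3.22 in Ad-GFP. In the same order Ad-IκBαΔN minus Ad-GFP with I+B was -1.33, -1.42, -1.43, -1.87 and -2.55. The cause was not tested. The share of members with κB was 87.0% with 1 mismatch, against 60.3% of other regions, 68.2% for the 9-letter core, 40.9% in the central 200 bp and 52.1% for members chosen with the steps divided out. For the glucocorticoid response element it was 0.77% with at most 1 mismatch, 26.6% with at most 3, and 3.17% in the central 200 bp. For AP-1 it was 19.5% in the central 200 bp and 19.9% with the steps divided out. Of the 20 named list leads 13 stayed members under all 4 rescalings, IRAK2, IKBKE, DUSP1 and PECAM1 under 3, DDIT4 and MYC under 2, and KRT7 under 1. Counts of linked and neighbouring members stayed within 1.5 times. The filter on low signal and the rule both use the same values. Unknown depth and scale limit every distance from 0.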
